A study of Zea mays with 12 samples.

Results

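The alternative oxidase genes aox1, aox1_1 and aox3 were taken by their gene names from a table of 99 maize (Zea mays) genes, of which they are 3. The table comes from RNA sequencing of seed embryos of the inbred lines Mo17, which the labels call sensitive to low temperature, and B73, which they call resistant. Seeds were imbibed in germination paper and sampled at 2 h, and the 4 groups of 3 biological replicates were Mo17 at 10 °C, Mo17 at 25 °C, B73 at 10 °C and B73 at 25 °C, where 25 °C was the normal condition. Each response type was represented by 1 inbred line, so that cold resistance and any other difference between the lines cannot be told apart.

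Alternative oxidase sits in the inner mitochondrial membrane of plants. It takes electrons from ubiquinol and passes them directly to oxygen, bypassing the proton-pumping complexes III and IV, so that electrons can flow to oxygen with less ATP made. The enzyme is encoded by a small nuclear gene family, members of which are known in many plants to be induced by cold, by oxidative stress and by a blocked cytochrome pathway, and cyanide-resistant respiration of this kind has long been measured in germinating seeds.

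The deposited table names aox1 as alternative oxidase 1, aox1_1 as an alternative oxidase AOX1 precursor and aox3 as an alternative oxidase AOX3 precursor, and annotates each of them to the mitochondrion. In the table's coordinates, whose build the submitters' processing notes give as B73 RefGen_v4, aox3 lies on chromosome 2 at 12565621 to 12567188 and aox1 on the same chromosome at 12637892 to 12640564, both on the plus strand. The spans are separated by 70703 bp, and the RefSeq annotation of the later NAM assembly of B73 places 1 other gene between them. aox1_1 lies apart from both, on the minus strand of chromosome 5 at 205304124 to 205306744. The suffix of aox1_1 marks a second row of the same symbol, and the RefSeq gene table gives aox1 as an older name of both genes. It also gives aox2 as a name of the chromosome 2 gene called aox1 here, but not of aox1_1. The names used here are those of the deposited table.

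Levels are given as FPKM, fragments scaled to gene length and to the size of the library, as computed by the authors. The sources used here do not give that length, but it enters every comparison between genes. 1 FPKM corresponded to 72.3 normalized counts (deposited counts divided by the relative depth of the library) for aox1, 189 for aox1_1 and 87.4 for aox3, 2.61 times as many for aox1_1 as for aox1, although the spans of aox1 and aox1_1 in the table are 2673 and 2621 bp. The shares and the sum of these genes are therefore also given in normalized counts. The depth of the 12 libraries relative to their mean ran from 0.817 to 1.08, and replicates correlated at 0.969 to 0.997 over the 76 genes that passed a filter on low values (Pearson r of log2(FPKM + 1), across genes). The library that stood apart was B73 10 °C replicate 1, with both of the lowest correlations (0.969 and 0.974), and the line and temperature differences of aox1 and aox1_1 that include it are also given without it. Of 5 embryo markers the table holds Agpsemzm, the embryo small subunit of ADP-glucose pyrophosphorylase, at 92.9 to 149 FPKM in all libraries. Of 6 endosperm markers it holds ae1, a starch branching enzyme, listed at 0 in every library, although a second row of that symbol, ae1_1, had 0.33 to 4.36 FPKM. Of 5 aleurone markers it holds a2, an enzyme of anthocyanin synthesis, at 0 to 0.06 FPKM, while a second row of that symbol, a2_1, described as an unknown protein, had 38.5 to 106.6 FPKM.

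The lines differed in which alternative oxidase gene had most of the FPKM, although aox1 and aox1_1 were both above 0 in every library. The part of read placement on the B73 build in this difference was not tested. In Mo17 embryos aox1 supplied nearly all of the summed alternative oxidase FPKM, and in B73 embryos aox1_1 did. aox1 was 26.1-fold higher in Mo17 than in B73 at 10 °C and 44.0-fold higher at 25 °C, whereas aox1_1 was 13.7-fold lower in Mo17 at 10 °C and 12.8-fold lower at 25 °C. Between 10 °C and 25 °C no change of either gene was called in either line, but sizeable changes of aox1 lie within its intervals. The 95% intervals of its fold at 10 °C over 25 °C ran from 0.243 to 1.39 in Mo17 and from 0.354 to 2.70 in B73.

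aox1 had 13.16, 6.97 and 18.40 FPKM in the Mo17 libraries at 10 °C, against 0.30, 0.45 and 0.72 FPKM in the B73 libraries at 10 °C. At 25 °C it had 6.83, 32.25 and 27.16 FPKM in Mo17, against 0.62, 0.68 and 0.19 FPKM in B73. Every Mo17 library was above every B73 library, and the lowest Mo17 value, 6.83 FPKM, stood far above the highest B73 value, 0.72 FPKM. The Mo17 values were also widely spread: at 25 °C replicate 1 was low and replicates 2 and 3 were high, and at 10 °C replicate 2 was the low one.

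The mean aox1 level was 12.8 ± 5.72 FPKM in Mo17 and 0.49 ± 0.213 FPKM in B73 at 10 °C, and 22.1 ± 13.5 FPKM in Mo17 and 0.497 ± 0.267 FPKM in B73 at 25 °C (mean ± SD, n = 3 each). The edgeR quasi-likelihood test on the deposited counts gave a log2 difference, Mo17 over B73, of 4.71 ± 0.69 (SE; 95% interval 3.20 to 6.22) at 10 °C and of 5.46 ± 0.71 (SE; 3.90 to 7.02) at 25 °C. Both passed the threshold of 0.05 (edgeR, Benjamini-Hochberg adjusted p = 0.000116 and 5.28e-05 over the 76 tested genes), as did 64.5% of all tested genes at 10 °C and 61.8% at 25 °C. As folds the intervals ran from 9.18 to 74.4 at 10 °C and from 14.9 to 129.9 at 25 °C. Without B73 10 °C replicate 1 the log2 difference at 10 °C was 4.46 (edgeR adjusted p = 0.000377).

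aox1_1 had 0.59, 0.48 and 0.53 FPKM in the Mo17 libraries at 10 °C, against 9.38, 6.67 and 6.09 FPKM in the B73 libraries at 10 °C. At 25 °C it had 0.43, 0.76 and 0.73 FPKM in Mo17, against 8.41, 7.61 and 8.59 FPKM in B73. Every Mo17 library was below every B73 library, so the order of the lines was the reverse of that for aox1. Within B73 the highest value belonged to replicate 1 and the lowest to replicate 3, both at 10 °C.

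Mean aox1_1 levels were 0.533 ± 0.0551 FPKM in Mo17 and 7.38 ± 1.76 FPKM in B73 at 10 °C, and 0.64 ± 0.182 FPKM in Mo17 and 8.2 ± 0.522 FPKM in B73 at 25 °C (mean ± SD, n = 3 each). The log2 difference, Mo17 over B73, was -3.78 ± 0.26 (SE; 95% interval -4.34 to -3.21) at 10 °C and -3.68 ± 0.26 (SE; -4.24 to -3.11) at 25 °C. Both passed (edgeR, adjusted p = 4.71e-07 and 5.98e-07). Without B73 10 °C replicate 1 the log2 difference at 10 °C was -3.57 (edgeR adjusted p = 5.61e-07).

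Calls between the lines were frequent in this table, and the members have to be read against that. Of the 76 tested genes, 36.8% were called higher and 27.6% lower in Mo17 at 10 °C, and 36.8% higher and 25% lower at 25 °C. At 10 °C all Mo17 libraries were above all B73 libraries for 35.5% of the tested genes, as for aox1, and below them for 25%, as for aox1_1. At 25 °C the shares were 40.8% and 28.9%. That aox1 and aox1_1 were called is therefore usual here. In the size of the log2 difference aox1 ranked 3 of 76 at 10 °C and 2 of 76 at 25 °C, and aox1_1 ranked 4 of 76 at both temperatures. The median log2 difference of all tested genes was 0.06 at 10 °C and 0.17 at 25 °C. Under TMM scaling it was -0.26 and -0.09, and aox1 then stood at 4.36 and 5.21 and aox1_1 at -4.11 and -3.93.

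**Figure D1:**
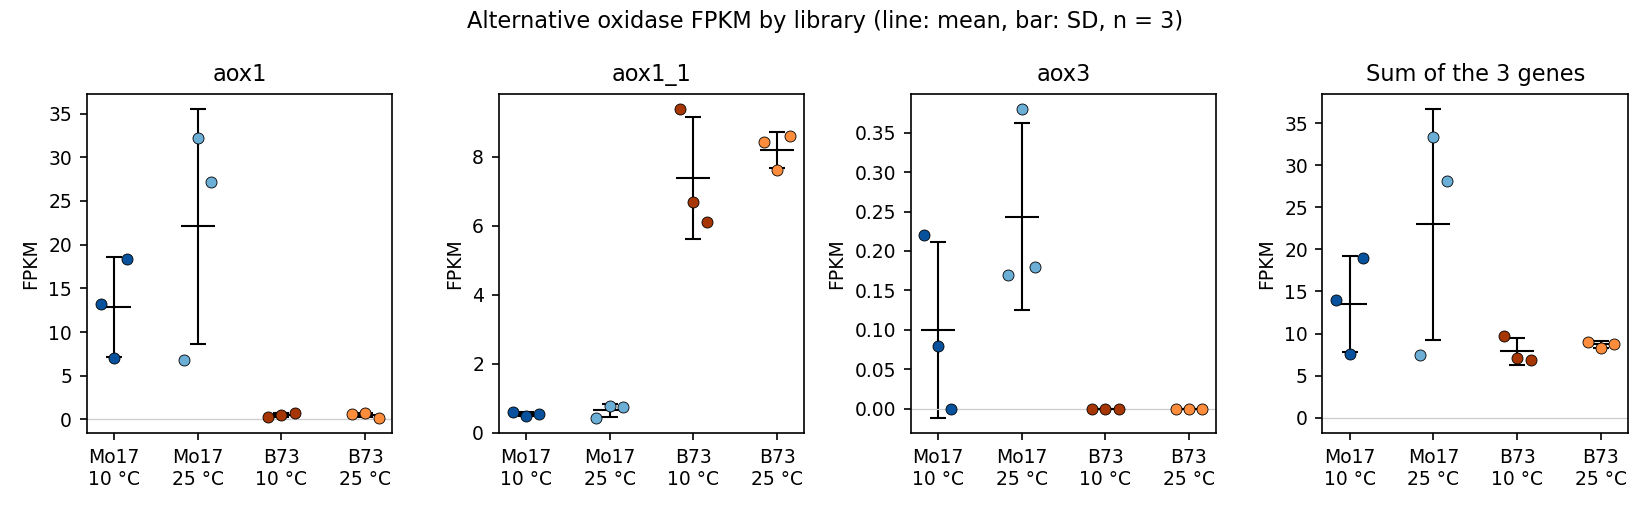
FPKM (vertical axis, with its own scale in each panel) of aox1, aox1_1, aox3 and their sum in each library of Mo17 at 10 °C, Mo17 at 25 °C, B73 at 10 °C and B73 at 25 °C; points are libraries, horizontal lines are means and bars are SD (n = 3). aox1 was at 6.83 to 32.25 FPKM in Mo17 and at 0.19 to 0.72 FPKM in B73, aox1_1 was at 0.43 to 0.76 FPKM in Mo17 and at 6.09 to 9.38 FPKM in B73, and the summed levels overlapped.

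aox3 was at the limit of what the table resolves. It had 0.22, 0.08 and 0 FPKM in Mo17 at 10 °C and 0.17, 0.38 and 0.18 FPKM in Mo17 at 25 °C, and it was listed at 0 in all 6 B73 libraries. In deposited counts the Mo17 values were 19, 8 and 0 at 10 °C and 15, 34 and 16 at 25 °C. Low counts in the table fall mostly on 4, 8, 12, 15 and 19, which occur 19, 10, 6, 6 and 12 times, whereas 10 does not occur at all, so that 1 fragment appears to be worth about 4 counts and the aox3 values may stand for only a few fragments each.

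aox3 did not pass the filter (FPKM of at least 1 in at least 3 libraries), so 2 of the 3 members were tested. In a fit without the filter, over 97 genes, aox3 passed between the lines at 25 °C (edgeR adjusted p = 0.0267), as did 51.5% of the genes of that fit. At 10 °C its edgeR adjusted p was 0.0509, and 53.6% of the genes passed. With the counts also divided by 4 the edgeR adjusted p was 0.0290 at 25 °C and 0.0912 at 10 °C. No fold is given, because B73 was listed at 0. Its Mo17 level averaged 0.1 ± 0.111 FPKM at 10 °C and 0.243 ± 0.118 FPKM at 25 °C (mean ± SD, n = 3 each), far below that of its chromosomal neighbour aox1 in the same libraries.

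Shares of the summed FPKM showed the exchange between the genes most directly. aox1 made up 92.6% to 97.2% of the sum in Mo17 at 10 °C and 91.9% to 96.8% in Mo17 at 25 °C, against 3.10% to 10.6% in B73 at 10 °C and 2.16% to 8.20% in B73 at 25 °C. aox1_1 made up 2.80% to 6.37% in Mo17 at 10 °C and 2.28% to 5.79% in Mo17 at 25 °C, against 89.4% to 96.9% in B73 at 10 °C and 91.8% to 97.8% in B73 at 25 °C. aox3 reached at most 2.29%, in Mo17 25 °C replicate 1. In all 12 libraries a single gene thus held at least 89.4% of the summed FPKM, and which gene it was followed the line and not the temperature. In normalized counts aox1 held 83.7% to 92.9% of the sum in Mo17 at 10 °C and 83.7% to 93.0% in Mo17 at 25 °C, and aox1_1 held 95.6% to 98.8% in B73 at 10 °C and 96.6% to 99.1% in B73 at 25 °C.

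**Figure D2:**
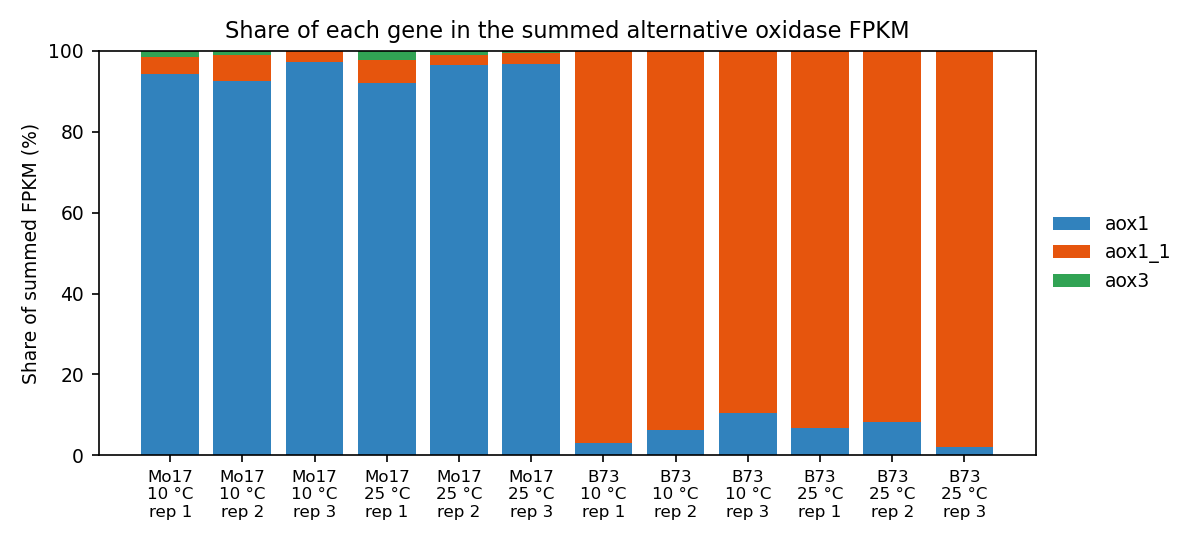
Share of aox1, aox1_1 and aox3 in their summed FPKM (vertical axis, %) in each library, with the Mo17 libraries left of the B73 libraries. aox1 held 91.9% to 97.2% in the Mo17 libraries and 2.16% to 10.6% in the B73 libraries, where aox1_1 held the rest.

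The sum of the 3 genes differed far less between the lines than its parts. It was 13.97, 7.53 and 18.93 FPKM in Mo17 at 10 °C, against 9.68, 7.12 and 6.81 FPKM in B73 at 10 °C. At 25 °C it was 7.43, 33.39 and 28.07 FPKM in Mo17, against 9.03, 8.29 and 8.78 FPKM in B73. The lines overlapped at both temperatures: Mo17 10 °C replicate 2 lay within the B73 range, and Mo17 25 °C replicate 1 lay below all 3 B73 libraries, while the other Mo17 libraries lay above them.

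The mean sum was 13.5 ± 5.72 FPKM in Mo17 and 7.87 ± 1.58 FPKM in B73 at 10 °C, a ratio of 1.71, and 23.0 ± 13.7 FPKM in Mo17 and 8.7 ± 0.376 FPKM in B73 at 25 °C, a ratio of 2.64 (mean ± SD, n = 3 each). These are descriptions, with no test. With 1 library left out the ratio ran from 1.37 (without Mo17 10 °C replicate 3) to 2.09 (without Mo17 10 °C replicate 2) at 10 °C and from 2.04 (without Mo17 25 °C replicate 2) to 3.53 (without Mo17 25 °C replicate 1) at 25 °C, and under TMM scaling it was 1.34 and 2.24. In normalized counts the mean sum was 1039 ± 417 in Mo17 and 1427 ± 317 in B73 at 10 °C, a ratio of 0.728, and 1739 ± 1014 in Mo17 and 1583 ± 86.1 in B73 at 25 °C, a ratio of 1.10, with overlap at both temperatures. Which line had the higher sum at 10 °C thus depended on the unit. 1 FPKM held 2.61 times as many normalized counts for aox1_1 as for aox1, so the units weight these genes differently. The build named in the processing notes is that of B73, so Mo17 reads may have been placed on another line's sequence. The part of the build, or of how reads of similar genes were assigned, in the difference between the lines was not tested. In RNA from whole embryos, fewer cells that express a gene and less of its RNA per cell cannot be told apart.

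**Figure D3:**
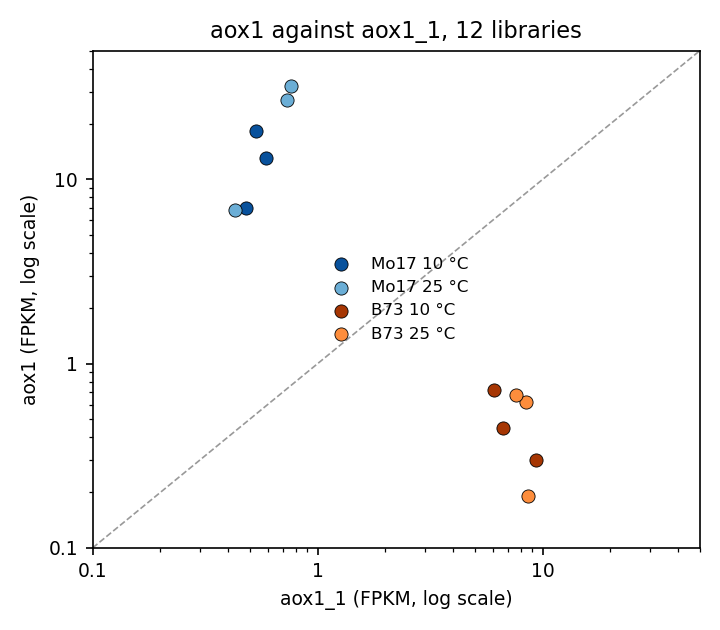
aox1 FPKM (vertical axis, log scale) against aox1_1 FPKM (horizontal axis, log scale) in the 12 libraries; the dashed line marks equal levels. The 6 Mo17 libraries lie above the line and the 6 B73 libraries below it.

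Within Mo17, aox1 and aox1_1 were high in the same libraries. Over the 6 Mo17 libraries their log2 FPKM correlated at a Pearson r of 0.93 (exact permutation p = 0.0139, Benjamini-Hochberg adjusted over the 2 lines 0.0278) and a Spearman rho of 0.943 (exact permutation p = 0.0167, adjusted 0.0333). Without the 2 libraries farthest from the median of aox1 the r was 0.819, over the 4 left. This comparison was not planned, and how often other gene pairs correlate as strongly was not tested. In the 6 Mo17 libraries aox1_1 stood at 2.36% to 6.89% of the aox1 FPKM. Whether reads of aox1 counted to aox1_1 had a part in this relation was not tested. Over the 6 B73 libraries the r was -0.60 (exact permutation p = 0.203, adjusted 0.203) and the rho -0.77 (exact permutation p = 0.103, adjusted 0.103), and without the 2 farthest libraries the r was 0.0439, so no relation was shown there. Both genes of a library share its depth scaling, and each line pools its 2 temperatures, with too few libraries to give a value at each. The permutations moved libraries freely across the temperatures, and both genes had lower means at 10 °C in Mo17. The p-values therefore do not separate a shared temperature difference from a relation between replicates.

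The next question was whether these genes responded to imbibition at 10 °C. In Mo17 aox1 averaged 12.8 FPKM at 10 °C and 22.1 FPKM at 25 °C, and the groups overlapped, since the 25 °C libraries included both the lowest and the highest values of the line. The log2 change was -0.78 ± 0.57 (SE; 95% interval -2.04 to 0.48), which did not pass (edgeR quasi-likelihood, Benjamini-Hochberg adjusted p = 0.485). The interval spans folds of 0.243 to 1.39, so neither a large decrease nor a modest increase lies outside it. With 1 library left out the log2 change ran from -1.21 (without Mo17 25 °C replicate 1, edgeR adjusted p = 0.179) to -0.40 (without Mo17 25 °C replicate 2), and it was -0.48 without Mo17 10 °C replicate 2. It did not pass in any of these fits, in which the edgeR adjusted p ran from 0.179 to 0.822.

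aox1_1 in Mo17 had a log2 change of -0.25 ± 0.24 (SE; 95% interval -0.78 to 0.27), with 0.48 to 0.59 FPKM at 10 °C inside the range of 0.43 to 0.76 FPKM at 25 °C (edgeR quasi-likelihood, Benjamini-Hochberg adjusted p = 0.607). aox3 in Mo17 had 0 to 0.22 FPKM at 10 °C and 0.17 to 0.38 FPKM at 25 °C, again with overlap, and in the fit without the filter it did not pass (edgeR adjusted p = 0.769). Among the 76 tested genes 2.63% passed in this comparison. The number passing ran from 0 to 9 genes over the alternative fits, so it does not tell how many genes responded. The sum in Mo17 was 0.587 times as high at 10 °C as at 25 °C, with a range of 0.439 (without Mo17 25 °C replicate 1) to 0.759 (without Mo17 25 °C replicate 2) when 1 library was left out.

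In B73, aox1 averaged 0.49 FPKM at 10 °C and 0.497 FPKM at 25 °C. Its log2 change was -0.03 ± 0.67 (SE; 95% interval -1.50 to 1.44; edgeR, adjusted p = 0.993), and its sign depended on the scaling and on the library left out, at 0.23 without B73 10 °C replicate 1. aox1_1, the gene that dominates in this line, had 7.38 FPKM at 10 °C and 8.2 FPKM at 25 °C on average. Replicate 1 at 10 °C lay above all 25 °C libraries and replicates 2 and 3 below them.

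The log2 change of aox1_1 in B73 was -0.15 ± 0.23 (SE; 95% interval -0.65 to 0.35; edgeR, adjusted p = 0.832). It was -0.36 without B73 10 °C replicate 1 (edgeR adjusted p = 0.487). As a fold the interval with all libraries ran from 0.637 to 1.27, narrower than that of aox1. 1.32% of the tested genes passed in B73. The sum was 0.905 times as high at 10 °C as at 25 °C, with a range of 0.801 (without B73 10 °C replicate 1) to 0.965 (without B73 10 °C replicate 3) when 1 library was left out.

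**Figure D4:**
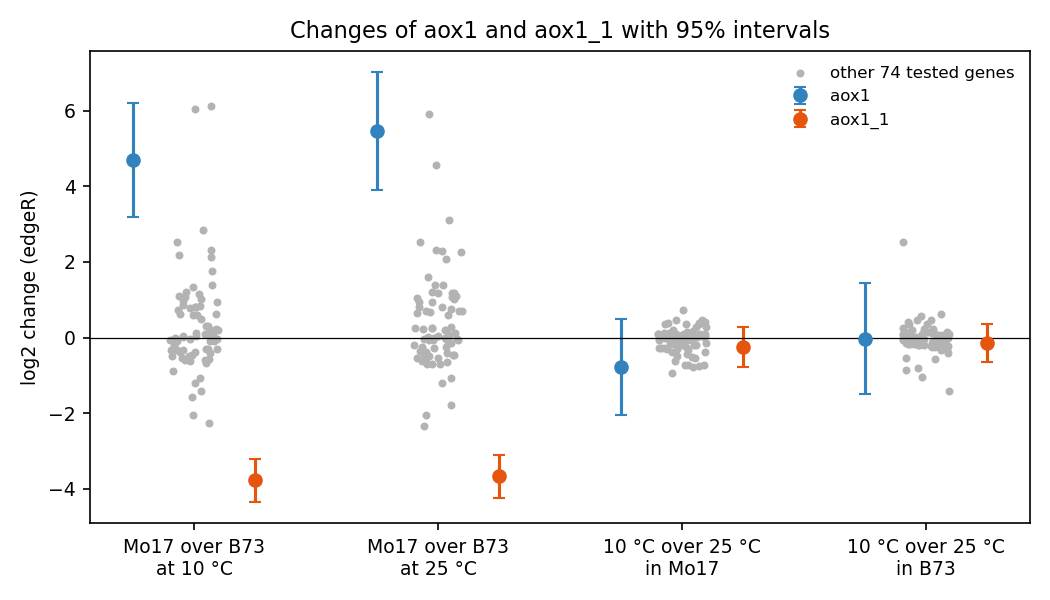
log2 change (vertical axis, edgeR) of aox1 and aox1_1 with 95% intervals for Mo17 over B73 at each temperature and for 10 °C over 25 °C in each line; grey points are the other 74 tested genes. The line differences of aox1 (4.71 and 5.46) and aox1_1 (-3.78 and -3.68) lie at the edges of all tested genes, and the intervals of the temperature changes include 0.

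Whether the lines responded differently to temperature was tested as the interaction. For aox1 it was -0.75 ± 0.88 (SE; 95% interval -2.68 to 1.18) and for aox1_1 -0.10 ± 0.33 (SE; -0.83 to 0.62) on the log2 scale, and neither passed (edgeR, adjusted p = 0.888 and 0.970). Of the 76 genes 0% passed, 7.89% (6 genes) had an unadjusted p under 0.05, and DESeq2 also called 0. Averaged over both lines the log2 change at 10 °C was -0.41 ± 0.44 (SE; 95% interval -1.37 to 0.56) for aox1 and -0.20 ± 0.16 (SE; -0.57 to 0.16) for aox1_1 (edgeR adjusted p = 0.632 and 0.505), where 10.5% of the tested genes passed. Without B73 10 °C replicate 1 the interaction was -1.01 for aox1 and 0.11 for aox1_1, and the average was -0.28 for aox1 and -0.31 for aox1_1, again with no call.

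The mean levels of aox1 thus ran, high to low, Mo17 25 °C, Mo17 10 °C and then both B73 groups, whose order (0.497 FPKM at 25 °C and 0.49 FPKM at 10 °C) turned under 9 of 21 alternatives, and those of aox1_1 ran B73 25 °C, B73 10 °C, Mo17 25 °C and Mo17 10 °C. For both genes the groups of different lines differed, and no difference between the groups of the same line passed the threshold.

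aox1 was also among the least even genes between replicates. The coefficient of variation of its normalized count was 0.445 in Mo17 at 10 °C and 0.609 in Mo17 at 25 °C, ranks 3 and 2 of the 76 tested genes, and 0.436 in B73 at 10 °C and 0.518 in B73 at 25 °C, ranks 11 and 3. The medians over all tested genes were 0.109, 0.110, 0.147 and 0.108 in these 4 groups. The values of aox1_1 in the same order were 0.108, 0.284, 0.238 and 0.064, ranks 39, 9, 25 and 62. In B73 aox1 had only 16 to 56 deposited counts, whereas in Mo17 it had 515 to 2411.

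The genes whose pattern over the 12 libraries was most like that of aox1 were am1, a regulator of meiosis, at a Pearson r of 0.952, abp1, an auxin-binding protein, at 0.952, and acpt1 at 0.949 (r of log2(FPKM + 1)). Those most like aox1_1 were adk1 at 0.963, the mitochondrial aldehyde dehydrogenase aldh2 at 0.958 and the auxin-binding protein abp4 at 0.952. For both, the 12 libraries fall into the 2 lines, so these values mostly restate which genes differ between them. For aox3 the most alike were AN110, annotated as an AN1-type zinc finger protein, at 0.819, aprl6 at 0.798 and am1 at 0.786. As aox3 was listed at 0 in every B73 library, its values also hold the difference between the lines.

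With the mean of each line subtracted, AN110 was the most like aox1, at an r of 0.735, followed by a2_1, which shares its symbol with the aleurone marker a2, at 0.637 and AI901738 at 0.572. The part of other tissue in these values was not tested. AN110 was also the most like the sum of the 3 genes, at 0.851 over the 12 libraries, followed by amyb5, a beta-amylase, at 0.724 and ald1, a fructose-bisphosphate aldolase, at 0.723, and it led again after the line means were subtracted, at 0.773, followed by a2_1 at 0.664 and arf1 at 0.545. For aox1_1 the line-centred values were 0.611 for ARF11, 0.605 for aos1 and 0.593 for AGG2, and for aox3 they were 0.616 for am1, 0.570 for AI920398 and 0.569 for AN110. All genes named here were picked as those with the highest r among the other tested genes. Whether values of this size exceed what such picking gives was not tested. The line-centred Spearman rho was lower than the r for each of them, from 0.277 (ARF11 with aox1_1) to 0.587 (AGG2 with aox1_1).

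Other genes annotated to mitochondria or respiration differed between the lines in both directions, about as often as all tested genes did. Of 10 such genes, all tested, 5 were higher and 2 lower in Mo17 at 10 °C, and the same counts held at 25 °C, beside 64.5% and 61.8% of all tested genes called in either direction. Without B73 10 °C replicate 1 the counts at 10 °C were 6 higher and 2 lower, beside 31 higher and 22 lower of all 76 tested genes. The median log2 difference of the list was 0.40 at 10 °C and 0.43 at 25 °C, against 0.06 and 0.17 for all tested genes. Under TMM scaling the list median was 0.07 and 0.16, against -0.26 and -0.09 for all tested genes. Without B73 10 °C replicate 1 the list median at 10 °C was 0.79. ANT1, a mitochondrial ADP/ATP carrier, had a log2 difference of 0.94 ± 0.16 (SE) at each temperature. Its paralogue ANT2 had 0.08 ± 0.15 (SE), with no call at 10 °C or 25 °C. The members with the smallest p at both temperatures were act1, an actin, the mitochondrial aldh2 and the alcohol dehydrogenases adh1 and adh2, several of which are better known outside mitochondria. akin1, a subunit of the SnRK1 protein kinase, lost its call under TMM and median-ratio scaling, and its sign turned under TMM. At 10 °C against 25 °C 0 of the 10 passed in either line, and averaged over the lines adh1 and aldh2 were lower, as were 7 of all 76 tested genes.

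Genes of fermentation, sugar breakdown and aldehyde oxidation differed between the lines at both temperatures in all 5 cases, 4 higher and 1 lower in Mo17, in a table where 64.5% of the tested genes differed at 10 °C and 61.8% at 25 °C. The list also named pdc1, pdc3 and ldh1, which are not among the genes of this table, so fermentation is covered only in part. adh2 had a log2 difference of 6.04 ± 0.77 (SE) at 10 °C and 4.57 ± 0.71 (SE) at 25 °C, adh1 2.32 ± 0.22 and 2.09 ± 0.22, aldh5, an aldehyde dehydrogenase, 2.19 ± 0.41 and 1.59 ± 0.40, and ald1 1.11 ± 0.22 and 0.80 ± 0.22. aldh2 was the lower one, at -2.27 ± 0.20 at 10 °C and -2.33 ± 0.20 at 25 °C. Averaged over both lines, ald1, adh1 and aldh2 were lower at 10 °C than at 25 °C, where 7 of all 76 tested genes were lower. The aldh2 call was lost under median-ratio scaling, with the replicate number as a block and in 8 of 12 fits with 1 library left out (without Mo17 10 °C replicate 1 or 2, Mo17 25 °C replicate 1 or 3, B73 10 °C replicate 1 or 3, or B73 25 °C replicate 1 or 3). In B73 alone ald1 passed, lower at 10 °C (edgeR adjusted p = 0.0499), but its call was lost under TMM and median-ratio scaling and in 7 of 12 fits with 1 library left out (without Mo17 10 °C replicate 3, Mo17 25 °C replicate 2, B73 10 °C replicate 1 or 3, or any B73 25 °C replicate). In Mo17 alone 0 passed.

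Genes annotated to peroxide, superoxide, glutathione or oxidative stress, of which 8 of 11 were tested, gave 3 that were higher in Mo17 at each temperature, adh1, adh2 and AGA1, an alkaline alpha-galactosidase, and 0 that were lower. This share is near the 36.8% of all tested genes called higher at each temperature. Without B73 10 °C replicate 1, 5 were higher at 10 °C and 4 at 25 °C, beside 31 of all 76 tested genes at each temperature. TMM scaling gave 2 lower at 10 °C and 1 at 25 °C, beside 32 and 27 of all 76 tested genes. apx2, an ascorbate peroxidase that removes hydrogen peroxide, did not pass, at 0.07 ± 0.09 (SE) at 10 °C and 0.01 ± 0.09 (SE) at 25 °C. Of the 4 genes annotated to cold, ACC1, an acetyl-CoA carboxylase, anx2, an annexin, adh1 and adh2, 4 were higher in Mo17 at both temperatures, beside 36.8% of all tested genes, although TMM scaling ended the call of ACC1 at 10 °C. In both of these lists 0 genes passed between the temperatures within a line. In the average adh1 was the member lower at 10 °C, where 7 of all 76 tested genes were lower. adh1 and adh2 belong to all 4 lists.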

How the data were processed

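Per the labels' protocols, polyadenylated RNA was made into strand-keeping dUTP libraries that were read in pairs. Tools named in the submitters' processing notes are StringTie 1.3.4d, HISAT2 2.0.4, cutadapt 1.9, DESeq2 and edgeR, without roles or order. The sources used here do not give whether strand was used in counting. Per the file headers, the deposited table holds a count and an FPKM per gene and library, both made by the authors. Total depth is unknown. Relative depth was the ratio of count to FPKM over the 48 genes at 5 FPKM or more in every library.

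edgeR 4.0.16 (R 4.3.3) was run on the deposited counts with library sizes proportional to relative depth and no TMM factors, since TMM assumes a majority of unchanged genes, in 1 model of 4 group means over 12 libraries. Benjamini-Hochberg adjustment of the 2-sided p-values covered all 76 genes that reached 1 FPKM in 3 or more libraries. log2 changes are fitted without a prior count, and standard errors are the log2 change divided by the square root of F. The procedure was tested on simulated data with changes put into Mo17 at 10 °C only. Those data held no other difference between the lines, so they do not check the tests between lines. limma 3.58.1, DESeq2 1.42.0, other scalings, no filter, a replicate block and libraries left out were alternatives, and counts divided by 4, the sum in normalized counts and list counts without B73 10 °C replicate 1 were added after the data were seen. The members and gene lists were chosen with earlier results of these data known. The correlation of aox1 with aox1_1 within each line was not among the planned tests. The genes named are the members, the 3 genes most like each in log2(FPKM + 1), and up to 4 genes per list with the smallest p, while ANT1, ANT2, aldh5, apx2 and akin1 were named after their values were seen. Sequences of the genes were not used here.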

Additional observations from a re-analysis of the deposited data

How the results depend on the processing

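The line differences of aox1 and aox1_1 kept their sign and passed the threshold under all 21 alternatives at each temperature. With 1 library left out, the log2 difference of aox1 ran from 4.36 to 5.10 at 10 °C and from 5.07 to 5.89 at 25 °C, and that of aox1_1 from -3.90 to -3.57 and from -3.82 to -3.46. On the log2(FPKM + 1) scale, which lessens changes of low genes, limma gave 3.13 and 3.71 for aox1 and -2.43 and -2.49 for aox1_1. No temperature change or interaction of either gene passed under any alternative. The aox1 change in B73 turned positive under TMM (0.028), median-ratio scaling (0.040), limma with a pseudocount of 1 (0.00052) or 0.1 (0.049) and counts divided by 4 (0.036), and ran from -0.43 to 0.27 with 1 library left out. The aox1_1 interaction turned to 0.062 with limma on log2(FPKM + 1) and ran from -0.32 to 0.11 with 1 library left out.

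The number of genes called at 10 °C in Mo17, 2, was 4 with median-ratio scaling, 9 with DESeq2, 1 with the replicate block, 0 in the 6 libraries alone and 0 to 5 with 1 library left out (0 without Mo17 10 °C replicate 1 or 3 or Mo17 25 °C replicate 2 or 3, and 5 without Mo17 25 °C replicate 1 or B73 10 °C replicate 1). In B73 it was 1, and 0 with TMM or median-ratio scaling, 2 with DESeq2, the replicate block or the 6 libraries alone and 0 to 2 with 1 library left out (0 without Mo17 10 °C replicate 3, Mo17 25 °C replicate 2, B73 10 °C replicate 3 or any B73 25 °C replicate, and 2 without Mo17 10 °C replicate 1 or 2). TMM scaling split the calls between the lines into 22 higher and 32 lower at 10 °C and 26 higher and 27 lower at 25 °C, against 28 higher and 21 lower at 10 °C and 28 higher and 19 lower at 25 °C without it.

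Replicate numbers were not shown to pair the libraries: 5 of 18 same-number pairs correlated over 0.1 in their deviations from the group means. With the replicate block the line differences were 4.78 and 5.29 for aox1 and -3.78 and -3.67 for aox1_1 at 10 °C and 25 °C, and no call of either gene changed. The sum was 0.728 times as high in Mo17 as in B73 at 10 °C in normalized counts, an alternative added after the data were seen, against 1.71 times in FPKM, and 1.10 times as high at 25 °C, against 2.64 times in FPKM. With 1 library left out the FPKM ratios of Mo17 to B73 ran from 1.37 to 2.09 at 10 °C and from 2.04 to 3.53 at 25 °C. aox3 and the sum were otherwise recomputed only under the scalings and with libraries left out, and aox3 also without the filter. Counts near those of a few fragments limit aox3 in Mo17 and aox1 in B73.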
